A study of Mus musculus with 16 samples.

Results

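The circadian clock genes were described here in islets of Langerhans, the hormone-secreting cell clusters of the pancreas, from 12-week-old male mice. They comprised 10 genes, *Arntl*, *Clock*, *Per1*, *Per2*, *Per3*, *Cry1*, *Cry2*, *Nr1d1*, *Nr1d2* and *Dbp*, taken as the rows of the count table whose Ensembl identifier maps to these symbols, out of 52636 genes in the table. All 10 passed the filter on low counts, as did 18587 genes in all. The islets were cultured for 10 days under 4 conditions, namely without additions (Control), with 50 pg/mL of the pro-inflammatory cytokine IL-1β, with 0.2 mM of butyrate, a fermentation product of the gut microbiota, or with IL-1β and butyrate together. Each condition had 4 RNA-seq libraries, numbered 1 to 4, and since the 500 islets behind a library were a pool of several animals, a replicate stands for an experiment and not for an animal. The labels name the strain C57BL/6JRj and the methods of the study name it C57BL/6NRj. The time of day at which the islets were harvested is not given in the sources used here. Every condition was sampled only after 10 days of culture and not over a cycle. A change in the level of a rhythmic transcript and a change in its phase can therefore not be told apart.

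The clock is a feedback loop of transcription. BMAL1 (encoded by *Arntl*) and CLOCK pair to activate genes through E-boxes in their promoters, among them the *Per* and *Cry* genes, whose proteins return to the nucleus and repress that pair. The nuclear receptors REV-ERBα (*Nr1d1*) and REV-ERBβ (*Nr1d2*) form another arm, in which they repress *Arntl* through ROR elements, and DBP is an output factor that acts through D-boxes. In beta cells this oscillator is known for its part in the daily rhythm of insulin secretion.

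The promoters of the 3 genes with a call in both the IL-1β and the butyrate comparisons, or with the largest fall, are shown because they carry the E-box type motifs of the loop close to the start site. Each is the 250 bases before the RefSeq start site on GRCm38.p6, written 5′ to 3′ on the strand of the gene, and capitals mark the E-box CACGTG or the E-prime box CACGTT, which reads AACGTG on the other strand.
*Nr1d1*, chr11:98775378-98775627, minus strand: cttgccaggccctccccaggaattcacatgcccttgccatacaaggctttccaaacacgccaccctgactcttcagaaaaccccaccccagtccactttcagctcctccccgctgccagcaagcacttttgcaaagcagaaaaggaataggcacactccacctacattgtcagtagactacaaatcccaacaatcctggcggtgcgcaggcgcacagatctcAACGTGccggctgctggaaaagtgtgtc
*Cry1*, chr10:85185055-85185304, minus strand: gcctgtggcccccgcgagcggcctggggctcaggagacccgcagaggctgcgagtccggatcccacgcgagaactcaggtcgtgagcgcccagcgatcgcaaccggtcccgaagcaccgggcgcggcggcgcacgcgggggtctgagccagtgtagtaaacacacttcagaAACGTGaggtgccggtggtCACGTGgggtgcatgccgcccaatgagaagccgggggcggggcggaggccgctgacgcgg
*Cry2*, chr2:92434070-92434319, minus strand: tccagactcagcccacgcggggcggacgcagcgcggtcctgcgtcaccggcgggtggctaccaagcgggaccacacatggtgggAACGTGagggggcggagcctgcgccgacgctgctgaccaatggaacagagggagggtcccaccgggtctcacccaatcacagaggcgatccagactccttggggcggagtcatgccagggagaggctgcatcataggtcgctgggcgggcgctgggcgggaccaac

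The motifs were searched on both strands in windows from 250 bases before to 50 bases after the start site, of which RefSeq gave 13 for 9 of the 10 genes, and *Per2* had none. The E-box began 60 bases before the start of *Cry1* and 166 bases before one start of *Per1*. The E-prime box began 28 bases before the start of *Nr1d1*, 79 bases before that of *Cry1* and 166 bases before that of *Cry2*. Of 32817 mouse windows of the same length, 7.15% held the E-box and 4.69% the E-prime box. The D-box TTATGTAA occurred in the *Per3* window alone among those of the clock genes, at 205 and 158 bases before the start, against 0.935% of all windows, and its variant TTACGTAA, in 0.119% of all windows, and the cAMP element TGACGTCA, in 1.79%, occurred in none of the 13. The core of the ROR element, AGGTCA, was present in 4 of the 13 (*Arntl*, *Clock*, *Per1* and *Nr1d2*) and in 16.3% of all windows. These matches describe letters in a window and were not tested as binding sites.

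Counts per library ranged from 18635943 to 25955943, and no gene of the clock set had fewer than 198 reads in any library. Levels are given as CPM, reads scaled to a common library size, after TMM scaling, and changes as log2 fold changes ± SE from edgeR's quasi-likelihood test, with a gene called significant at a Benjamini-Hochberg adjusted p under 0.01 over all genes tested. Among all genes, 17.8% were called for IL-1β against Control (11.2% up, 6.59% down) and 19.9% for butyrate against Control (8.53% up, 11.4% down). For IL-1β with butyrate the share was 19.5% against IL-1β alone (8.41% up, 11.1% down) and 14.8% against butyrate alone (9.92% up, 4.86% down). The split depended on scaling: of the calls for IL-1β against Control 63.0% were up with TMM, 51.5% with upper-quartile scaling and 79.8% with library size only. Corresponding values were 42.9% and 58.5% with TMM and upper-quartile scaling for butyrate against Control, 43.1% and 57.7% for both agents against IL-1β, and 67.1% and 53.2% (87.5% with library size only) for both agents against butyrate. Beta cell markers were high in every library, with a summed level of 8 genes of 137000 to 261000 CPM. The 4 comparisons share libraries, so their values are set side by side and not counted as independent.

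**Figure D1:**
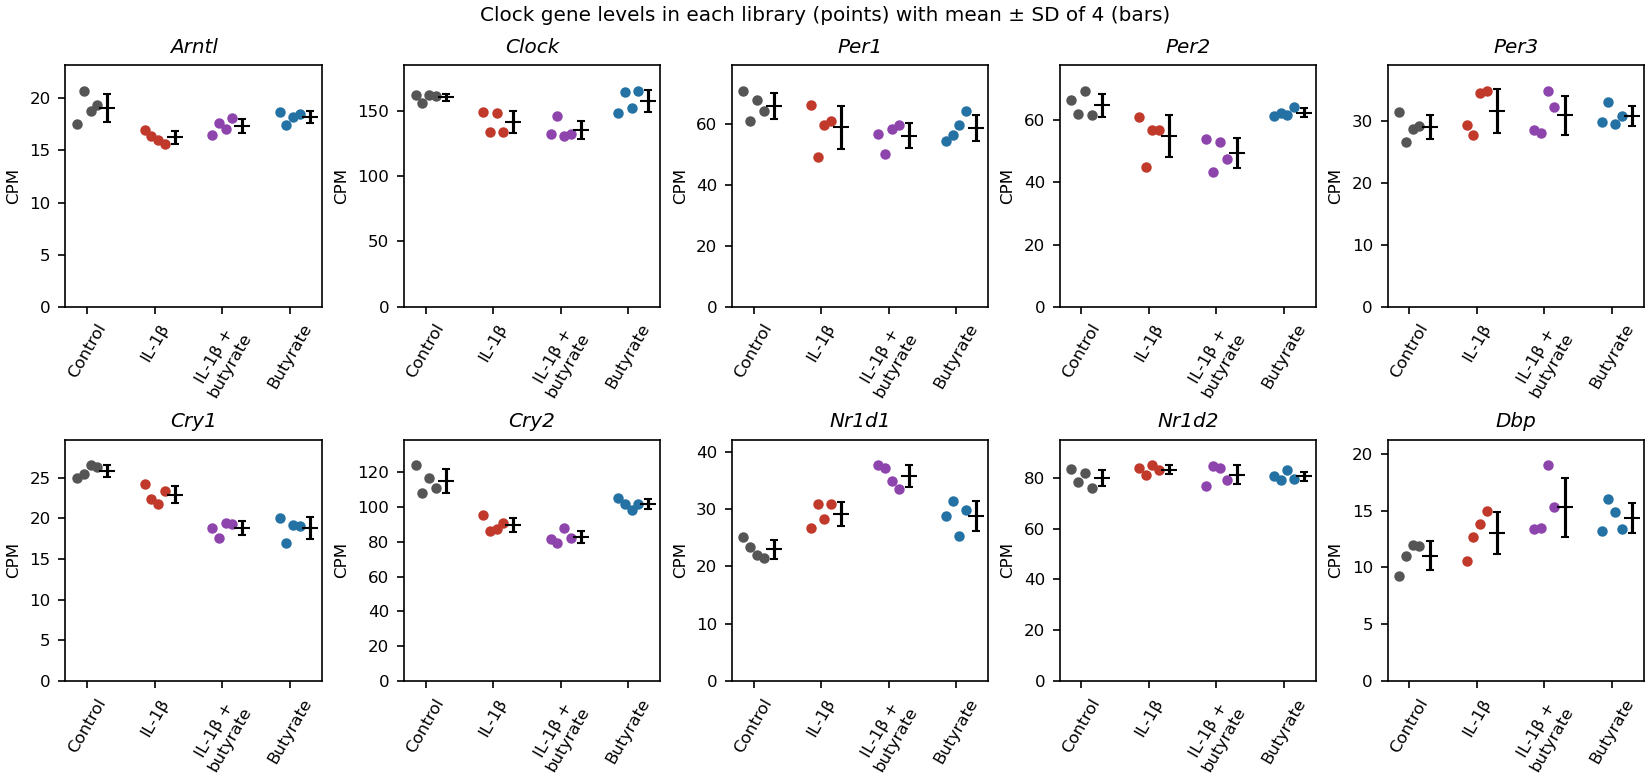
CPM of each clock gene (y axis, from 0) in the 16 libraries by condition (x axis), with each point a library and the bars the mean ± SD of 4. *Nr1d1* was highest with IL-1β and butyrate together (33.4 to 37.6 CPM), *Cry1* was lowest in both conditions with butyrate, and *Nr1d2* stayed between 76.1 and 85.0 CPM.

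With IL-1β, 4 of the 10 clock genes were called against Control, beside 17.8% of all genes: *Cry2*, *Arntl* and *Clock* fell and *Nr1d1* rose, with a median log2 fold change of -0.17 over the 10 beside -0.025 over all genes. In the presence of butyrate, IL-1β also gave 4 calls, beside 14.8% of all genes, with *Cry2*, *Clock* and *Per2* lower and *Nr1d1* higher (median -0.03 beside -0.009). Butyrate alone gave 3 calls, beside 19.9%, with *Cry1* and *Cry2* lower and *Nr1d1* higher (median -0.04 beside 0.007). Added to IL-1β, butyrate gave 2 calls, beside 19.5%, with *Cry1* lower and *Nr1d1* higher (median -0.05 beside 0.012), a share near the background. Leaving out 1 library moved the count for IL-1β against Control between 2 (without Control library 4 or IL-1β library 4) and 5, and that for both agents against IL-1β between 1 (without IL-1β library 1) and 3. *Nr1d1* was thus called in all 4 comparisons, always upwards.

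**Figure D2:**
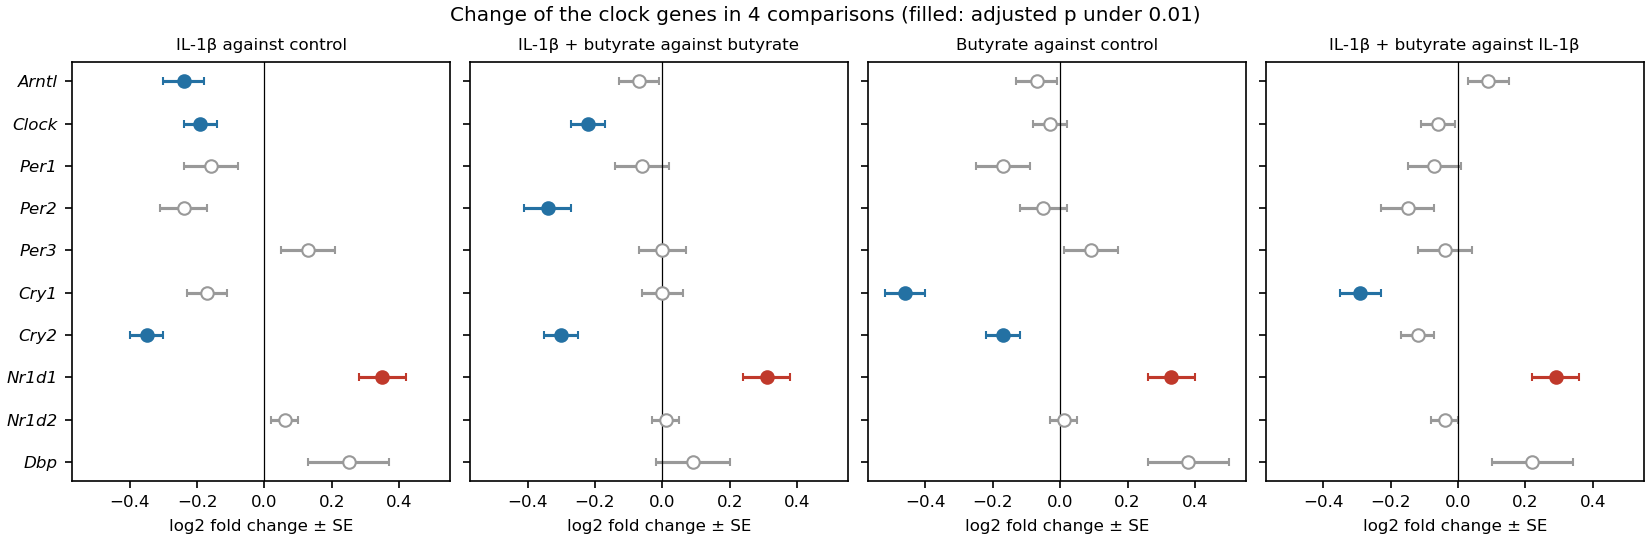
Log2 fold change ± SE (x axis) of the 10 clock genes (y axis) in 4 comparisons, with filled red (up) and blue (down) points for an adjusted p under 0.01 and open points for the rest. *Nr1d1* lies to the right of 0 in every panel, and *Cry1* moves in the butyrate panels (-0.46 and -0.29).

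*Arntl* encodes BMAL1, the partner that the loop cannot run without. It measured 17.5, 20.7, 18.8 and 19.4 CPM in Control libraries 1 to 4, and 17.0, 16.4, 16 and 15.6 CPM with IL-1β. With butyrate it measured 18.7, 17.4, 18.2 and 18.5 CPM, and with both agents 16.5, 17.6, 17.1 and 18.1 CPM. The IL-1β libraries all lay below the Control libraries, the closest pair being 17.0 and 17.5 CPM, whereas both butyrate conditions overlapped with their comparators. *Arntl* fell by 0.24 ± 0.06 on the log2 scale with IL-1β (adjusted p = 0.0042). This call is not firm: it was lost in 7 of 15 alternative analyses, among them those without Control library 2 (adjusted p = 0.029), Control library 4 (0.014), IL-1β library 3 (0.018) or IL-1β library 4 (0.027). With butyrate present the change was -0.07 ± 0.06 (adjusted p = 0.48), and butyrate itself gave -0.07 ± 0.06 and, on top of IL-1β, 0.09 ± 0.06 (adjusted p = 0.41 and 0.27).

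CLOCK is the binding partner of BMAL1 and had far more reads than it, 2736 to 3825 per library. *Clock* measured 162, 156, 162 and 161 CPM in Control islets and 149, 134, 148 and 134 CPM with IL-1β. It measured 148, 164, 152 and 165 CPM with butyrate and 132, 146, 131 and 132 CPM with both. The IL-1β groups did not overlap with their comparators without IL-1β, and the butyrate groups did. *Clock* fell with IL-1β by 0.19 ± 0.05 without butyrate (adjusted p = 0.0054) and by 0.22 ± 0.05 with it (adjusted p = 0.0014). The first of these calls was lost in 6 of 15 alternatives, including without Control library 1 (adjusted p = 0.015), 3 (0.020) or 4 (0.015) and without IL-1β library 2 (0.022) or 4 (0.035). The second was lost in 1 of 15, with library size only (adjusted p = 0.066). Butyrate gave -0.03 ± 0.05 against Control and -0.06 ± 0.05 against IL-1β, neither called.

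The period proteins are the inhibitors whose timed build-up and degradation set the length of the cycle. *Per2* measured 66.4, 62.0, 69.4 and 61.8 CPM in Control, 61.0, 45.1, 56.9 and 56.8 CPM with IL-1β, 61.5, 62.4, 61.7 and 64.4 CPM with butyrate, and 53.9, 43.4, 52.9 and 47.7 CPM with both. Library 2 was the lowest in both IL-1β conditions. *Per2* fell by 0.34 ± 0.07 with IL-1β in the presence of butyrate (adjusted p = 0.0018), a call lost with library size only (adjusted p = 0.043). Without butyrate its change was -0.24 ± 0.07 and missed the threshold (adjusted p = 0.019), although the groups did not overlap. It passed in 4 of 15 alternatives, among them no filter on low counts (adjusted p = 0.00076), upper-quartile scaling (0.0060) and the analysis without IL-1β library 1 (0.0080). The analysis with the replicate number in the model was also among them. Against IL-1β alone, both agents gave -0.15 ± 0.08 (adjusted p = 0.14), which passed without IL-1β library 2 (adjusted p = 0.0046).

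*Per1*, an immediate target of cAMP and glucocorticoid signals as well as of the clock, was not called in any of the 4 comparisons. Its level was 70.9, 61.0, 68.0 and 64.5 CPM in Control, 66.2, 49.2, 59.7 and 61.0 CPM with IL-1β, 54.4, 56.5, 59.9 and 64.2 CPM with butyrate, and 56.7, 50.3, 58.3 and 59.6 CPM with both. It differed from Control by -0.16 ± 0.08 with IL-1β and by -0.17 ± 0.08 with butyrate (adjusted p = 0.12 and 0.10), and in both cases the groups overlapped. The first passed in 1 of 15 alternatives, that with the replicate number in the model. The second passed in 2 of 15, that with the replicate number and that without a filter on low counts (adjusted p = 0.0078). The libraries with both agents (50.3 to 59.6 CPM) all lay below those of Control (61.0 to 70.9 CPM), a comparison that was not tested. *Per3*, a period gene with a lesser role in the core loop, ranged from 26.7 to 34.9 CPM over all 16 libraries. Its differences lay between -0.04 and 0.13 with overlapping groups.

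The cryptochromes are the main repressors of the BMAL1 and CLOCK pair. *Cry1* measured 24.9, 25.4, 26.5 and 26.3 CPM in Control, 24.2, 22.4, 21.7 and 23.3 CPM with IL-1β, 20, 16.9, 19.2 and 19.1 CPM with butyrate, and 18.8, 17.6, 19.4 and 19.3 CPM with both. Every library with butyrate lay below every library without it. *Cry1* fell with butyrate by 0.46 ± 0.06 (adjusted p = 1.4e-06), from 25.8 ± 0.74 to 18.8 ± 1.3 CPM (means ± SD, n = 4, edgeR), and by 0.29 ± 0.06 in the presence of IL-1β (adjusted p = 0.00049). Both calls held in all 15 alternatives. With IL-1β alone the groups did not overlap either, and the change was -0.17 ± 0.06 (adjusted p = 0.031), which passed in 1 of 15 alternatives, with upper-quartile scaling (adjusted p = 0.0079). With butyrate present IL-1β gave 0.00 ± 0.06.

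*Cry2* measured 124, 108, 117 and 111 CPM in Control and 95.3, 86.5, 87.3 and 90.6 CPM with IL-1β. With butyrate it measured 105, 102, 98.4 and 102 CPM, and with both agents 81.8, 79.1, 87.9 and 82.3 CPM. All 8 libraries with IL-1β lay below all 8 without it. *Cry2* fell with IL-1β by 0.35 ± 0.05 in the absence of butyrate (adjusted p = 1.9e-06) and by 0.30 ± 0.05 in its presence (adjusted p = 2.8e-05), and both calls held in all 15 alternatives. Butyrate lowered it by 0.17 ± 0.05 (adjusted p = 0.0066), but this call was lost in 6 of 15 alternatives, including without Control library 1 (adjusted p = 0.039) or 3 (0.023) and without butyrate library 2 (0.019), 3 (0.026) or 4 (0.015). On top of IL-1β the butyrate difference was -0.12 ± 0.05 (adjusted p = 0.065). Reads in 295 bases (4.67%) of the *Cry2* exons are shared by position with the antisense transcript *D930015M05Rik*, whose level was 2.04 to 2.40 CPM and whose change with IL-1β was 0.06 ± 0.17.

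REV-ERBα, the product of *Nr1d1*, represses *Arntl* and other genes with ROR elements. *Nr1d1* measured 25.1, 23.3, 21.9 and 21.5 CPM in Control, 26.6, 30.9, 28.2 and 30.8 CPM with IL-1β, 28.7, 31.3, 25.2 and 29.9 CPM with butyrate, and 37.6, 37.1, 34.8 and 33.4 CPM with both. The lowest treated library, at 25.2 CPM, lay just above the highest Control library, and all libraries with both agents lay above all others. *Nr1d1* rose with IL-1β by 0.35 ± 0.07 (adjusted p = 0.00027) and with butyrate by 0.33 ± 0.07 (adjusted p = 0.00052). In the presence of the other agent, IL-1β raised it by 0.31 ± 0.07 (adjusted p = 0.00075) and butyrate by 0.29 ± 0.07 (adjusted p = 0.0012). The last of these was lost in 1 of 15 alternatives, without IL-1β library 1 (adjusted p = 0.010), and the other calls held in all. The mean went from 22.9 ± 1.6 CPM in Control to 29.1 ± 2.1 with IL-1β, 28.8 ± 2.6 with butyrate and 35.7 ± 2.0 with both (means ± SD, n = 4). Of the *Nr1d1* exons, 263 bases (8.55%) overlap those of *Thra*, a thyroid hormone receptor gene on the opposite strand, and the strand setting of the counting is not given in the sources used here. *Thra* rose with butyrate by 0.56 ± 0.06 (adjusted p = 3.5e-08) and by 0.62 ± 0.06 on top of IL-1β, and with IL-1β it changed by -0.15 ± 0.06 (adjusted p = 0.076), opposite in sign to *Nr1d1*. How many of the reads of each gene come from the other was not tested, and none of the 15 alternatives left out the shared bases.

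*Nr1d2* encodes the paralog REV-ERBβ and varied least of the 10, from 76.1 to 85.0 CPM over all libraries. Its differences lay between -0.04 and 0.06, each with an SE of 0.04, and all its groups overlapped. *Dbp* varied most, from 9.24 to 19 CPM. It measured 9.24, 11, 12 and 11.9 CPM in Control, 10.6, 12.7, 13.8 and 15 CPM with IL-1β, 13.2, 16, 14.9 and 13.4 CPM with butyrate, and 13.4, 13.5, 19 and 15.3 CPM with both. The butyrate libraries lay above the Control libraries without overlap, but the difference of 0.38 ± 0.12 missed the threshold (adjusted p = 0.018). It passed in 4 of 15 alternatives, among them DESeq2 (adjusted p = 0.0073) and the analysis with the replicate number in the model. IL-1β gave 0.25 ± 0.12 (adjusted p = 0.14). *Dbp* shares 539 bases (18.0%) of its exons with *Sphk2*, a lipid kinase gene on the opposite strand. *Sphk2* itself rose with butyrate by 0.22 ± 0.05 (adjusted p = 0.0017), and how many *Dbp* reads come from it was not tested.

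Whether butyrate acted differently with and without IL-1β was tested as the difference between its effects. None of the 10 genes passed with edgeR or with DESeq2, and none had an unadjusted p under 0.05, while 18 of all genes tested (0.0968%) were called by edgeR. The smallest unadjusted p was 0.061, for *Cry1*, whose butyrate effect was weaker by 0.17 ± 0.08 when IL-1β was present. The difference for *Nr1d1* was -0.04 ± 0.09.

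Levels were also divided by exon length, the union of all annotated exons of a gene, so the order between genes depends on the annotation. On this scale *Cry2* was highest among the clock genes in Control islets, with 18.2 ± 1.1 CPM per kb (mean ± SD, n = 4). It was followed by *Nr1d2* (14.8 ± 0.62 CPM per kb), *Clock* (11.7 ± 0.21), *Per1* (11.7 ± 0.77) and *Per2* (11.1 ± 0.63), then by *Cry1* (7.72 ± 0.22), *Nr1d1* (7.46 ± 0.52), *Dbp* (3.68 ± 0.43), *Per3* (3.03 ± 0.21) and *Arntl* (2.54 ± 0.18). The libraries of *Clock* and *Per1*, of *Per1* and *Per2*, of *Cry1* and *Nr1d1*, and of *Dbp* and *Per3* overlapped, and so these neighbours in the order are not separated. *Nr1d1* moved furthest in the order. With both agents it measured 11.6 ± 0.65 CPM per kb and lay below *Cry2* and above *Per1* at 9.99 ± 0.73 CPM per kb, without overlap between their libraries. With IL-1β, *Nr1d2* (15.4 ± 0.30) and *Cry2* (14.2 ± 0.63) overlapped at the top, and *Arntl* was last in all 4 conditions.

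**Figure D3:**
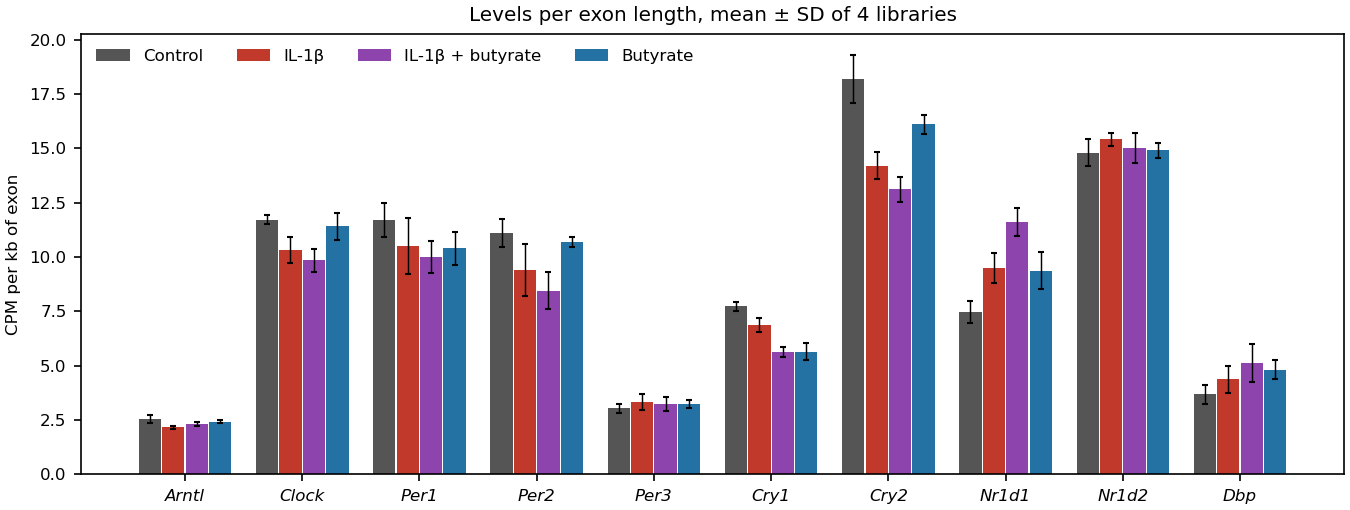
CPM per kb of exon (y axis, from 0) of each clock gene (x axis) in the 4 conditions, with bars for the mean and whiskers for the SD of 4 libraries. *Cry2* falls from 18.2 in Control to 13.1 with both agents while *Nr1d1* rises from 7.46 to 11.6.

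Within a condition, the libraries were compared after the condition mean was removed. The within-condition SD of log2 CPM ran from 0.05 for *Nr1d2* to 0.19 for *Dbp*, beside a median of 0.14 over all genes tested. Genes with an average log2 CPM of 4 to 8 had a median of 0.078. *Per1*, *Per2* and *Per3* (0.13 each) and *Nr1d1* (0.11) lay above that value. *Arntl*, *Clock*, *Cry1*, *Cry2* and *Nr1d2* (0.05 to 0.073) lay below it, and the level of *Dbp* is under that range. *Dbp*, *Per1* and *Per2* varied most with the replicate number, which accounted for 63.3%, 58.6% and 54.7% of their within-condition variance, beside 3.09% for *Clock* and a median of 37.2% over all genes. Among all genes tested, the shares of *Dbp*, *Per1* and *Per2* stood at percentiles 85.7, 80.7 and 75.8, and that of *Clock* at 1.47. *Per1* and *Per2* deviated together (Pearson r = 0.83 over 16 libraries), and each also deviated with *Cry2* (r = 0.62 for both). *Dbp* followed *Per3* (r = 0.56), and *Cry1* and *Nr1d1* deviated in opposite directions (r = -0.58). These values are descriptions, since the libraries share condition means, depth and replicate number.

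**Figure D4:**
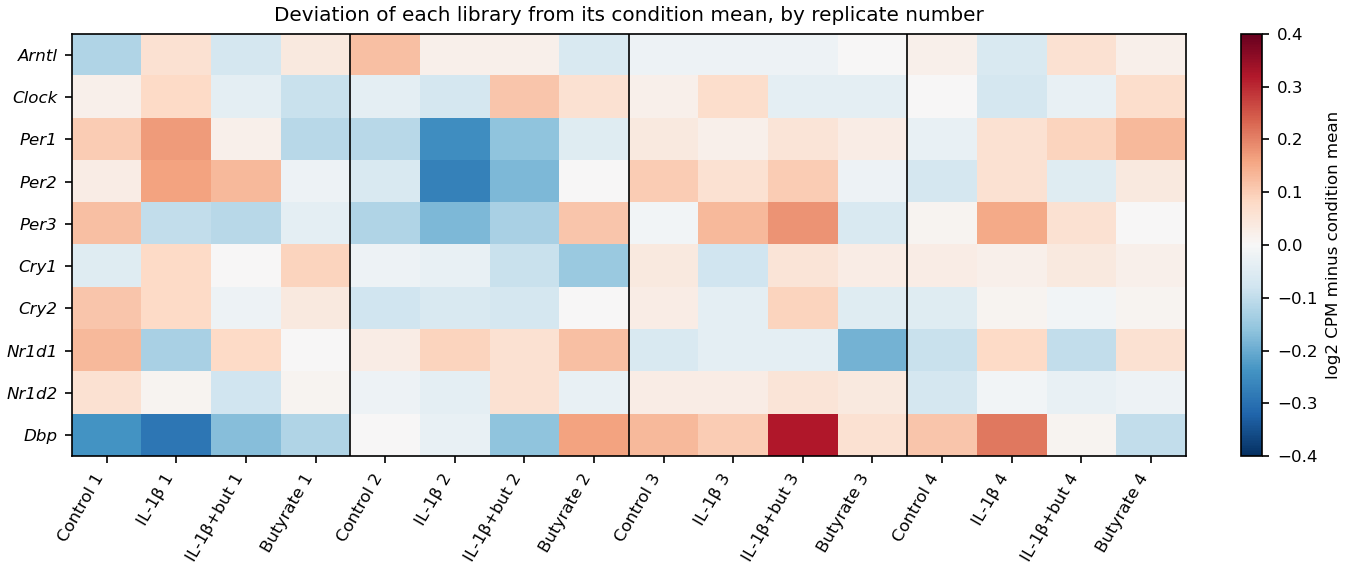
Log2 CPM minus the condition mean (colour) of each clock gene (y axis) in the 16 libraries (x axis), ordered by replicate number and parted by lines. *Dbp* is low in the libraries numbered 1, and *Per1* and *Per2* are low in library 2 of both IL-1β conditions.

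The deviations of *Arntl* were tested against those of the other 9 genes by permuting libraries within conditions (two-sided, 100000 resamples). No pair passed. By Pearson r the largest were *Per3* (Pearson r = -0.51, p = 0.057 and adjusted p = 0.38; Spearman rho = -0.41, p = 0.15, adjusted 0.46), *Nr1d1* (r = -0.47, p = 0.091 and adjusted p = 0.38; rho = -0.53, p = 0.064, adjusted 0.42) and *Cry2* (r = -0.39, p = 0.27 and adjusted p = 0.48; rho = -0.28, p = 0.38, adjusted 0.63), all by permutation. Without Control libraries 1 and 2, which lay farthest from the median of *Arntl*, r was -0.36 for *Per3*, -0.53 for *Nr1d1* and 0.09 for *Cry2*. *Cry1* had r = 0.37 (p = 0.13, adjusted p = 0.38) and rho = 0.46 (p = 0.094, adjusted p = 0.42) by permutation, and without those libraries r was 0.47 for it and -0.51 for *Dbp*. Among 12693 genes with an average log2 CPM of at least 1, the genes whose deviations were most like those of *Arntl* over the 16 libraries were *Adal* (r = 0.87), *Nipa2* (0.84), *Snap29* (0.83), *Cep57l1* (0.79) and *Nudt18* (0.79). For *Dbp* they were *4933404O12Rik* (0.90), *Tgfbr3* (0.89), *Mknk2* (0.89), *Col1a1* (0.88) and *Gpr27* (0.88), and no clock gene was among them.

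Other genes of the clock pathway, outside the set of 10, were counted by list. *Npas2*, a paralog of *Clock* that can take its place, measured 4.2, 4.5, 4.49 and 4.15 CPM in Control and 10.2, 9.06, 9.95 and 10.8 CPM with IL-1β. It rose by 1.21 (adjusted p = 3.3e-09) and, in the presence of butyrate, by 1.33, while *Arntl2*, the paralog of *Arntl*, was not called (0.30, adjusted p = 0.10). *Bhlhe40*, a repressor that binds E-boxes, measured 11.8, 10.6, 9.84 and 8.22 CPM in Control and 26.8, 25.9, 22.9 and 21.5 CPM with IL-1β. It rose by 1.26 (adjusted p = 1.4e-08), the 1 gene of 3 called among other E-box feedback genes (median 0.13), beside 17.8% of all genes. Butyrate lowered *Ciart*, another repressor of the loop, by 0.44 (adjusted p = 0.0036).

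The ROR receptors activate through the elements that REV-ERB proteins repress. *Rora* rose with butyrate by 0.25 (adjusted p = 6.8e-05), and *Rorb* was not called. Of the PAR bZIP factors, which bind D-boxes, *Hlf* fell with IL-1β by 0.54 (adjusted p = 0.00059) and *Tef* rose with butyrate by 0.24 (adjusted p = 0.00035), while *Nfil3*, which represses through the same sites, fell with butyrate by 0.39 (adjusted p = 6.2e-06).

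Among 8 kinases, ubiquitin ligases and a deubiquitinase that act on PER and CRY proteins, 1 was called with IL-1β (median log2 fold change 0.03). With butyrate 1 was called as well (median 0.06). These counts are near the shares of 17.8% and 19.9% over all genes. *Btrc*, a ligase subunit for PER, fell with IL-1β by 0.19 (adjusted p = 0.0044). *Fbxw11*, a paralog of *Btrc*, rose with butyrate by 0.21 (adjusted p = 0.0012). In the REV-ERB corepressor, *Tbl1xr1* rose with butyrate by 0.44 (adjusted p = 5.7e-06), and *Ncor1* and *Hdac3* were not called. With IL-1β, 1 of 6 genes listed as rhythmic outputs rose and 1 fell, beside 17.8% of all genes called. With butyrate 1 rose and 2 fell, beside 19.9%. *Noct* fell with IL-1β by 0.54 (adjusted p = 4.7e-06). *Nampt*, an enzyme of NAD synthesis, fell with butyrate by 0.21 (adjusted p = 0.0031). *Timeless*, with 78 to 158 reads in Control and 44 to 72 with butyrate, fell with butyrate by 1.16 (adjusted p = 3.9e-05). *Tspan4* rose with either agent (0.63 and 0.57). Whether these genes are rhythmic in islets was not tested. The study reports that butyrate lowered cell cycle genes and beta cell proliferation. Whether the fall of *Timeless* belongs to that change and not to the clock was not tested.

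**Figure D5:**
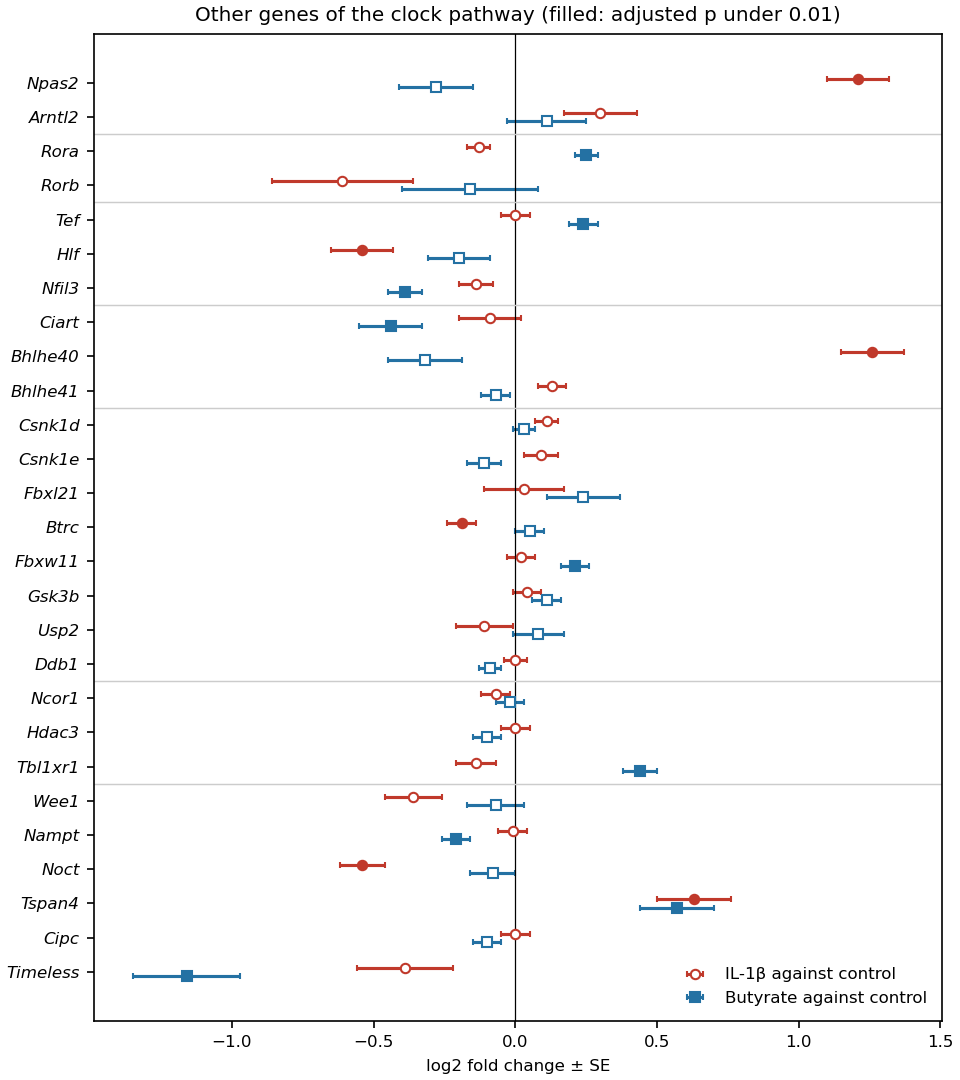
Log2 fold change ± SE (x axis) against Control of other clock pathway genes (y axis, parted by list) with IL-1β (circles) and butyrate (squares), filled for an adjusted p under 0.01. *Npas2* and *Bhlhe40* lie beyond 1 with IL-1β, and *Timeless* lies beyond -1 with butyrate.

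Genes that report on signals known to reset the clock were also counted. Of 6 cAMP and CREB targets, 3 fell with butyrate (*Nr4a1* by 1.02, *Fos* by 0.97 and *Nr4a2* by 0.53) and 1 rose (*Sik1*, 0.31), with a median log2 fold change of -0.50 beside 0.007 and with 11.4% of all genes called down. With IL-1β 1 fell (*Nr4a1*, by 0.39) and 1 rose (*Crem*, 0.55), with a median of 0.02 beside -0.025 and with 17.8% of all genes called. Of 5 glucocorticoid targets, *Fkbp5* alone was called with butyrate (0.35, adjusted p = 4e-06), beside 19.9% of all genes. None was called with IL-1β, beside 17.8%, though 2 had an unadjusted p under 0.05. Of 6 heat shock factor targets, butyrate raised *Hspa1a* (0.93) and *Hspa1b* (1.11), beside 8.53% of all genes called up. They are near-identical copies whose reads may not be told apart. Butyrate lowered *Hsph1* (-0.26) and *Dnajb1* (-0.25), beside 11.4% called down. No heat shock factor target was called with IL-1β, beside 17.8% of all genes, and 1 had an unadjusted p under 0.05.

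Of all genes, 8.53% were called up and 11.4% down with butyrate, and 11.2% up and 6.59% down with IL-1β. The cell type markers moved with IL-1β too. All 6 macrophage markers rose with it (median 2.22), with a summed level of 13.5 to 23.3 CPM in Control, 64.6 to 113 CPM with IL-1β, 11.6 to 20.2 CPM with butyrate and 29.2 to 63.2 CPM with both. Of 8 beta cell markers 7 fell and 1 (*Iapp*) rose, with summed levels of 213000 to 236000 CPM in Control and 137000 to 178000 CPM with IL-1β. In whole islets, fewer cells of a type and less RNA per cell cannot be told apart, and the part of these shifts in the IL-1β changes of the clock genes was not tested. With butyrate against Control no macrophage marker was called by edgeR, and none had an unadjusted p under 0.05, while 2 beta cell markers rose and 1 fell, 3 of 6 alpha cell markers fell and 1 of 3 delta cell markers rose. Their part in the fall of *Cry1* was not tested either. With IL-1β 2 alpha cell markers fell, no delta cell marker was called by edgeR (1 of 3 had an unadjusted p under 0.05), and *Ppy*, the marker of PP cells, was called with neither agent (-0.48 and 0.60). Of the remaining lists, endothelial, fibroblast, acinar, duct and T cell markers had at most 1 call for either agent against Control.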

How the data were processed

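The authors sequenced RNA of 16 islet libraries as single-end reads, mapped them to GRCm38 with STAR 2.5.3a, and deposited raw counts per gene, whole numbers without normalization. Their processing notes also name bcl2fastq 2.19.1, FastQC 0.11.7, MultiQC 1.7 and DESeq2. The annotation release, counter, read filters and strand setting are not given in the sources used here. Symbols came from the identifiers (52403 of 52636 matched), and exon positions from GENCODE M21.

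In R 4.3.3, edgeR 4.0.16 filtered low counts (filterByExpr), scaled by TMM and fitted 1 robust quasi-likelihood model with the 4 conditions to all 16 libraries. An adjusted p under 0.01 was a call. Alternatives were other scalings, DESeq2 1.42.0, no filter, a replicate block, single libraries left out, fits of the compared conditions only and a threshold of 0.05. The pipeline was tested on simulated data. Of the lists fixed for the clock pathway, 2 genes are not reported here and were left out of the counts. All 10 clock genes are named, and of the other lists a gene could be named where it was called; cell type markers are given mainly as counts and sums. Clock pathway, signal and marker lists, like the 10 genes, were chosen with earlier results of these data known. The genes overlapping clock gene exons were added after their positions were seen.

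Replicates of a condition differed by more than counting error (chi-square per gene 1.72 to 13.5 over 24 pairs, near 1 for counting alone), and none was counted as a repeat. Reads had no molecular identifiers. Neither the labels nor the methods tie a number to an experiment shared between conditions. The p-values measure the spread between these libraries.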

Additional observations from a re-analysis of the deposited data

Results flagged for a closer look

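In each of the 40 sets of 4 libraries (10 clock genes in 4 conditions), the library farthest from the others was compared with the range of its set by Dixon's criterion, which flags about 1 set in 20 by chance. One library stood apart: *Clock* in library 2 with IL-1β and butyrate together measured 146 CPM, and the nearest of the others 132 CPM (gap over range 0.958, above the critical value for 4 libraries). With it left out, *Clock* remained below the butyrate libraries with an adjusted p under 0.01.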

How the results depend on the processing

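The IL-1β effects on *Cry2* and *Nr1d1*, the butyrate effects on *Cry1* and that of butyrate alone on *Nr1d1* were called in all 15 alternatives of each comparison, and that of butyrate on *Nr1d1* in the presence of IL-1β in 14 of 15. The other called changes kept their direction in all 15 alternatives, including those in which the call was lost. The cause of the changes below was not tested.

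The number of clock genes called fell from 4 to 2 with library size only, for IL-1β against Control and for both agents against butyrate, and for butyrate against Control rose from 3 to 5 without a filter and to 5 with the replicate block. Leaving out 1 library gave 2 to 5 clock genes for IL-1β against Control (2 without Control 4 or IL-1β 4), 1 to 3 for both agents against IL-1β (1 without IL-1β 1) and 2 to 3 for butyrate against Control. Over all genes, both agents against IL-1β gave 5595 calls at 0.05 instead of 3629 at 0.01. The difference of the butyrate effects gave 18 calls, 39 at 0.05, 52 with DESeq2, 95 without a filter, 132 with the replicate block and 11 to 25 with 1 library left out (11 without butyrate 1), and in none of these a clock gene.

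Changes of sign were seen only in uncalled log2 differences near 0. With upper-quartile scaling they were *Clock* 0.0223 for butyrate against Control, *Per3* 0.0096 and *Nr1d2* 0.0125 for both agents against IL-1β, *Nr1d2* -0.0266 for both agents against butyrate, and the r of *Arntl* with *Dbp* (0.0881). With library size only they were *Nr1d2* -0.01 for butyrate against Control, *Arntl* 0.0264, *Per1* 0.0339, *Per3* 0.0983 and *Cry1* 0.0948 for both agents against butyrate, and 0.0008 for the difference of the butyrate effects on *Clock*. Without a filter they were *Nr1d2* -0.0055 for butyrate, and *Per3* 0.0238 and *Cry1* 0.0205 for both agents against butyrate. *Per3* gave 0.0001 there with only the compared conditions.

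With 1 library left out, values ran from -0.0126 to 0.0330 for *Nr1d2* with butyrate, from -0.1157 to 0.0015 for *Per3* with both agents against IL-1β, and, for both agents against butyrate, from -0.0652 to 0.0414 for *Per3*, -0.0521 to 0.0281 for *Cry1*, -0.0118 to 0.0325 for *Nr1d2* and -0.0370 to 0.1452 for *Dbp*. The difference of the butyrate effects on *Nr1d1* ran from -0.0937 to 0.0062.

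Same-numbered libraries had correlated deviations over all genes (r from 0.05 to 0.40), beside a median of -0.04 for different numbers. Only 17 of 24 pairs were over 0.1, a chosen limit, and the main fit did not take the numbers to pair the libraries. Hints of a pairing remain. In the data, 13 of 16 libraries matched best a library of their own number. The sample numbers in the column names run by replicate number across conditions, and the study speaks of 4 independent experiments. Whether the numbers pair the libraries was not settled, and the calls of *Per1*, *Per2* and *Dbp* below depend on it. The replicate block gave 4537, 4879, 4983 and 3750 calls over all genes for IL-1β against Control, butyrate against Control, both against IL-1β and both against butyrate, and 6, 5, 2 and 4 clock genes. *Per1* and *Per2* were added with IL-1β (adjusted p = 0.0092 and 0.00035) and *Per1* and *Dbp* with butyrate (0.0089 and 0.00023). With replicate number means removed as well as condition means, *Arntl* had r = 0.74 with *Cry1* and r = -0.77 with *Nr1d1* (adjusted permutation p = 0.044 and 0.035). The permuted values were not freed of the replicate number means again, so these p-values are too small and decide nothing.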
